A study of Xenopus laevis with 6 samples.

Results

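Collagen genes were taken as the rows of a gene count table whose symbol begins with col followed by a number, the letter a and another number, with a mean count of 10 or more over 6 samples of whole Xenopus laevis embryos. The table lists 42638 genes, of which 58 carried such a symbol and 49 reached that mean count. These 49 genes encoded 28 collagen chains. X. laevis is an allotetraploid frog in which most genes have an L copy and an S copy (homeologs), one from each ancestral subgenome, and 28 of the genes lay on L chromosomes and 21 on S chromosomes. Wild-type embryos were fertilized in 0.1X MMR (Marc's Modified Ringers, a salt solution) and either stayed there or were transferred at stage 9 to 0.75X MMR, which holds more salt, and both sets were collected at stage 35 after 7 days at 14 °C. Each medium had 3 samples, each a pool of 10 whole embryos. The study's methods describe its replicates as separate samples from separate batches, and no label says which pools share a batch or parents. RNA depleted of ribosomal RNA was read as single-end 75-nucleotide reads, with 5024957 to 7045215 counts per sample. The comparison between media asked whether raising embryos in the saltier medium altered their transcripts.

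Collagens are matrix proteins built from chains that wind into triple helices. Fibrillar chains assemble into the banded fibrils of skin, tendon and bone, and fibril-associated chains sit on the surface of those fibrils. In the frog embryo the notochord sheath and later the cartilage are rich in type II collagen with its partners of types IX and XI, while type IV chains form the meshwork of basement membranes and type VI chains form beaded filaments around cells such as muscle.

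The genes closest to the mean count of 10 were thinly read. Just above it stood col10a1.L at a mean count of 10.3, col6a5.L at 19.1 and col4a2.S at 44.8. Just below it stood col20a1.L at 5.17, col8a2.S at 4.17 and col8a2.L at 3.83. The genes without enough counts were single copies of chains whose partner copy was kept, col10a1.S and col17a1.S, or chains that did not reach the mean with either copy, namely col6a6, col8a2, col20a1 and col21a1. All 49 genes also passed the filter used for the tests, a level over 0.6 CPM (counts scaled to a common library size) in at least 3 samples. The filter used no TMM factors, and the CPM levels given below include TMM factors for composition.

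Collagen genes took close to the same share of the reads in both media. Their summed share of all counts ranged from 0.997% to 1.20% over the 6 samples. Summed over the 49 genes, the level was 10019, 12072 and 11775 CPM in the 3 samples in 0.1X MMR and 11289, 11302 and 11479 CPM in those in 0.75X MMR. The samples in 0.75X MMR all lay inside the range of those in 0.1X MMR. Interstitial fibrillar chains (types I, III, V and XXIV, 13 genes) took 45.7% to 48.3% of the collagen CPM of a sample. Notochord and cartilage chains (types II, IX, XI and XXVII, 12 genes) took 17.6% to 19.2%, beaded filament chains (type VI, 6 genes) 13.4% to 15.4%, and basement membrane chains (types IV and XVIII, 8 genes) 11.5% to 12.5%. The other fibril-associated chains (types XII, XIV and XVI, 5 genes) took 5.54% to 6.30%, and the remaining 5 genes were the transmembrane chains of types XIII and XVII and the short chains of types VIII and X. These are shares of reads. A longer transcript gives more reads, transcript lengths were not used here, and so the shares do not rank the chains by transcript number.

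**Figure D1:**
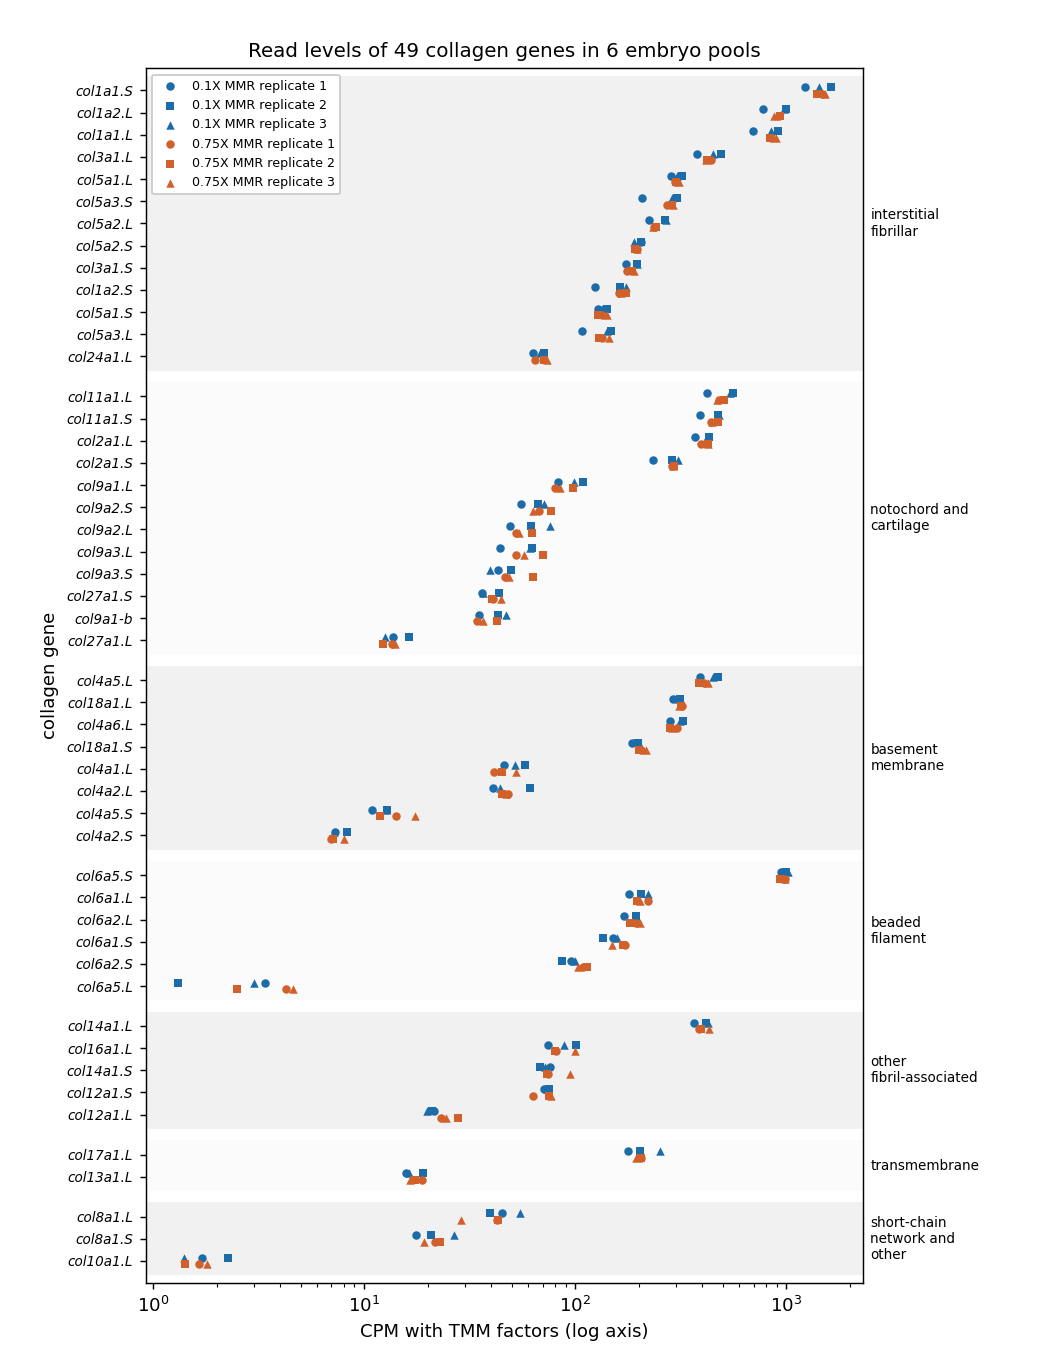
Level in CPM with TMM factors (log axis) of each of the 49 collagen genes in the 6 pools, grouped by class, with blue symbols for the pools in 0.1X MMR and orange symbols for those in 0.75X MMR. The levels run from about 1.32 CPM for col6a5.L to 1621 CPM for col1a1.S, and the pool 0.1X MMR replicate 1 (blue circles) lies to the left of the other pools for 30 of the 49 genes.

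Marker genes of several tissues of a whole embryo were read in every sample. Summed muscle markers lay between 7340 and 11257 CPM, epidermal markers between 5111 and 5367 CPM, nervous system markers between 866 and 911 CPM, cartilage markers between 129.8 and 137 CPM and notochord markers (tbxt and shh) between 22.7 and 28.3 CPM, with noto, krt5.7, matn1, hba1 and hbg1 not among the tested genes. Marker sums of the 2 media overlapped for these tissues, and the sum of the blood regulator gata1 did not, at 3.01 to 4.28 CPM in 0.1X MMR and 4.74 to 6.95 CPM in 0.75X MMR. Both gata1 copies were thinly read, at mean counts of 17.3 for gata1.L and 12.8 for gata1.S. Taken alone, gata1.S overlapped between media, and neither copy passed the test for a difference given below. Of all single genes tested 9.73% did not overlap. In such bulk samples fewer cells of a type and less RNA per cell cannot be told apart.

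No collagen gene passed the test for a difference between media. With edgeR's quasi-likelihood test and Benjamini-Hochberg adjustment over 28075 genes, 0 of 49 collagen genes had a false discovery rate (FDR) under 0.05, and the smallest FDR among them was 1.00. Among all genes tested 5 passed, or 0.0178%. At an unadjusted p under 0.05 there were 2 collagen genes (4.08%), close to the background of 4.39% of all genes, and both were higher in 0.75X MMR. By DESeq2, limma-voom and limma-voom with 2 surrogate variables 0 collagen genes passed as well, with 1, 2 and 3 at an unadjusted p under 0.05, where 1.49%, 4.43% and 4.99% of all genes stood. The same 2 genes that edgeR gave at that level were the only ones whose samples did not overlap between media, against 9.73% of all genes.

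Collagen log2 fold changes (0.75X MMR over 0.1X MMR) were centred at 0 and small. The median was 0.00053, beside -0.0014 for all genes tested, with 25 genes higher and 24 lower in 0.75X MMR. The lowest was -0.28 for col8a1.L and the highest 0.55 for col6a5.L, the latter at a mean count of 19.1. For 43 of the 49 genes (87.8%) the 95% confidence interval lay within 0.5 of 0, beside 51.7% of all genes tested. Where counts averaged at least 200, this held for 95.1% of collagen genes and 96.9% of all genes. Narrow intervals were thus not particular to collagens at that depth. For 48 of the 49 genes the interval lay within 1, so a doubling was outside it for every gene but col6a5.L. The interval of col6a5.L ran from -0.21 to 1.32. By class the median was 0.00053 for interstitial fibrillar chains, 0.019 for notochord and cartilage chains, -0.053 for basement membrane chains, 0.097 for beaded filament chains and -0.0012 for the other fibril-associated chains. It was -0.011 for the 2 transmembrane genes and -0.15 for the 3 short-chain genes.

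**Figure D2:**
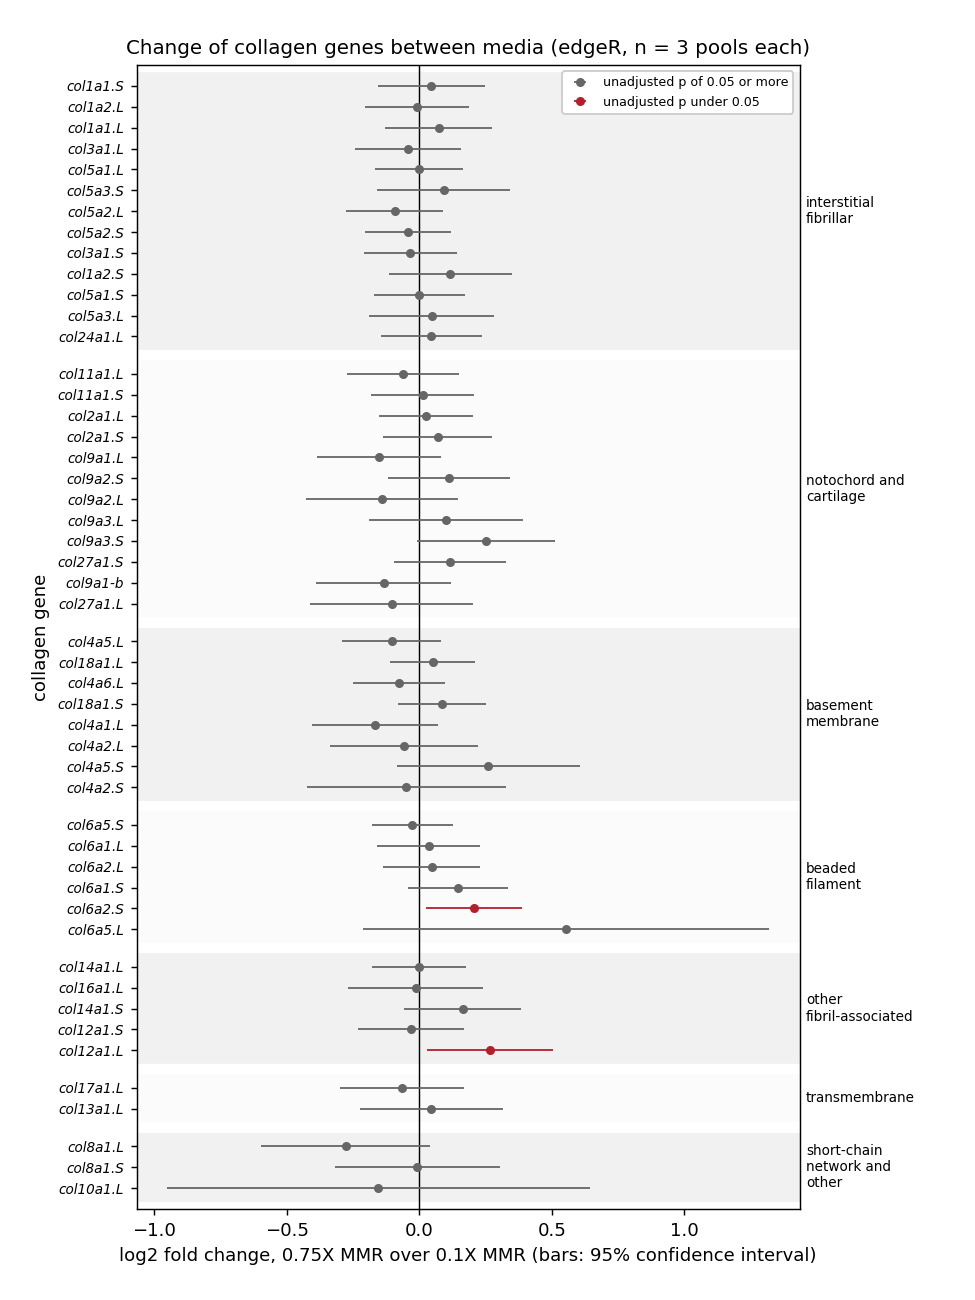
Log2 fold change of each collagen gene between media (0.75X MMR over 0.1X MMR, edgeR, 3 pools each), with bars for the 95% confidence interval and genes grouped by class. The 2 red points, col6a2.S at 0.21 and col12a1.L at 0.27, have an unadjusted p under 0.05, and 0 of the 49 genes passed the FDR limit of 0.05.

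The 2 genes with the smallest p were chains of different kinds. The gene col12a1.L encodes a chain of type XII collagen, which binds along fibrils in dense connective tissue. It stood at 21.4, 21.0 and 19.9 CPM in 0.1X MMR and at 23.1, 27.7 and 24.3 CPM in 0.75X MMR. All 3 samples in the saltier medium were above all 3 in the other. Its log2 fold change was 0.27 (SE 0.11), with an unadjusted p of 0.030 and an FDR of 1.00 by edgeR. Its homeolog col12a1.S did not share this, at 71.3, 75.4 and 73.7 CPM against 63.2, 75.4 and 76.9 CPM and a log2 fold change of -0.032 (SE 0.093). Summed over both copies, col12a1 was at 92.7, 96.3 and 93.7 CPM against 86.3, 103 and 101 CPM, which overlap. The gene col6a2.S encodes the α2 chain of type VI collagen. It stood at 95.7, 86.8 and 99.8 CPM in 0.1X MMR and at 109, 114 and 103 CPM in 0.75X MMR, again without overlap. Its log2 fold change was 0.21 (SE 0.085), with an unadjusted p of 0.030 and an FDR of 1.00. Its neighbour on chromosome 9_10S, col6a1.S, was at 151, 135 and 158 CPM against 172, 168 and 150.1 CPM, which overlap, with a log2 fold change of 0.15 (SE 0.088). Summed over L and S, col6a2 was at 266, 282 and 294.9 CPM against 303, 294.7 and 307 CPM, which overlap narrowly.

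Interstitial fibrillar chains showed no shift. Type I collagen, the main fibril of skin and bone, is a trimer of α1 and α2 chains. The most read collagen gene, col1a1.S, stood at 1221, 1621 and 1428 CPM in 0.1X MMR and at 1478, 1403 and 1526 CPM in 0.75X MMR, with a log2 fold change of 0.046 (SE 0.094). Its homeolog col1a1.L stood at 693, 909 and 849 CPM against 844, 841 and 892 CPM, with a log2 fold change of 0.073 (SE 0.094). In both genes the samples in 0.75X MMR sat inside the range of those in 0.1X MMR. The α2 gene col1a2.L was at 779, 992 and 973 CPM against 921, 930 and 875 CPM, and col1a2.S at 125, 162 and 174 CPM against 161, 174 and 164 CPM. Here too the lowest of the 6 values belonged to replicate 1 in 0.1X MMR.

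The remaining interstitial fibrillar genes behaved alike. Type III collagen accompanies type I in pliable tissues, and its genes col3a1.L and col3a1.S had log2 fold changes of -0.042 (SE 0.093) and -0.034 (SE 0.082). Type V chains start fibrils and set their width. The genes col5a1.L and col5a1.S were the nearest to no difference of all collagen genes, at -0.00031 (SE 0.077) and 0.00053 (SE 0.080), with 283, 321 and 302 CPM against 296, 301 and 309 CPM for the L copy. For col5a2.L and col5a2.S the values were -0.094 (SE 0.086) and -0.042 (SE 0.076). The third type V chain spread more, with col5a3.S at 206, 305 and 286 CPM in 0.1X MMR and 273, 286 and 289 CPM in 0.75X MMR. That gene's log2 fold change was 0.092 (SE 0.12) and that of col5a3.L was 0.046 (SE 0.11). The gene col24a1.L, for a minor fibrillar chain, was at 0.046 (SE 0.089).

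Notochord and cartilage chains did not move together. Type II collagen is the chief fibril of notochord sheath and cartilage. Its gene col2a1.L stood at 370.1, 431 and 423 CPM in 0.1X MMR and 393, 425 and 428 CPM in 0.75X MMR, and col2a1.S at 234, 289 and 308 CPM against 286, 295 and 290.5 CPM. Both copies overlapped between media, with log2 fold changes of 0.025 (SE 0.082) and 0.070 (SE 0.096). Type XI chains nucleate type II fibrils, and col11a1.L and col11a1.S were at -0.063 (SE 0.099) and 0.013 (SE 0.090). The fibrillar chain of type XXVII, known from mammalian cartilage, was at -0.10 (SE 0.14) for col27a1.L and 0.12 (SE 0.098) for col27a1.S.

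Type IX chains, which decorate type II fibrils as a trimer of α1, α2 and α3, differed in the direction of their mean change. Both α1 genes were lower in mean in 0.75X MMR. The gene col9a1.L stood at 83.1, 109 and 99.1 CPM against 80.0, 97.2 and 85.0 CPM, a log2 fold change of -0.15 (SE 0.11). The second α1 gene, col9a1-b on chromosome 5S, stood at 34.9, 42.9 and 46.8 CPM against 34.1, 42.4 and 36.6 CPM, a log2 fold change of -0.13 (SE 0.12). Both α3 genes were higher in mean in 0.75X MMR. For col9a3.S the levels were 43.0, 49.5 and 39.7 CPM against 46.7, 62.9 and 48.4 CPM, with a log2 fold change of 0.25 (SE 0.12) and an unadjusted p of 0.058 by edgeR, and for col9a3.L the log2 fold change was 0.10 (SE 0.14). The α2 copies split, with -0.14 (SE 0.13) for col9a2.L and 0.11 (SE 0.11) for col9a2.S. The direction of col9a3.L and col9a2.L turned when some single pools were left out. In each of these 6 genes the samples of the media overlapped. Beside them, the notochord regulator tbxt.S, at a mean count of 9.67, was at 2.42, 1.95 and 2.01 CPM in 0.1X MMR and 0.827, 0.709 and 1.63 CPM in 0.75X MMR, with an unadjusted p of 0.032 and an FDR of 1.00 by edgeR, while the notochord signal shh.L was at 0.038 (SE 0.14) and shh.S at 0.36 (SE 0.21) in log2 fold change. Their part in the collagen values was not tested.

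Of the basement membrane chains 5 of 8 (62.5%) were a little lower in mean in 0.75X MMR, beside 50.4% of all genes, and 0 passed the test. Without the pool 0.1X MMR replicate 2 the count was 3 of 8 and the median log2 fold change 0.045. Type IV collagen of most basement membranes is made of α1 and α2 chains, and a second network contains α5 and α6. The gene col4a1.L stood at 46.2, 58.1 and 51.7 CPM against 41.3, 45.0 and 52.4 CPM, a log2 fold change of -0.17 (SE 0.11), and col4a2.L at 40.6, 61.2 and 43.8 CPM against 47.8, 45.0 and 47.2 CPM, a log2 fold change of -0.057 (SE 0.13). The best read gene of the class, col4a5.L, stood at 388, 477 and 449 CPM against 407, 388 and 427 CPM, a log2 fold change of -0.10 (SE 0.087). Its neighbour col4a6.L was at 282, 326 and 314 CPM against 305, 282 and 288 CPM, at -0.076 (SE 0.081). Each of these genes overlapped between media, and each had its highest value in the pool 0.1X MMR replicate 2. The thinly read S copies were at 0.26 (SE 0.16) for col4a5.S and -0.049 (SE 0.18) for col4a2.S. Type XVIII collagen, a basement membrane proteoglycan whose end piece is endostatin, was at 0.050 (SE 0.074) for col18a1.L and 0.087 (SE 0.077) for col18a1.S. Summed over both copies, col18a1 was at 475, 514 and 510 CPM against 525, 517 and 525 CPM. It was the 1 chain of the 28 whose summed levels did not overlap between media, where 9.73% of all single genes did not.

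Of the beaded filament chains 5 of 6 were higher in mean in 0.75X MMR, where 50.4% of all genes were lower. The gene col6a2.S, above, was the only one of them under an unadjusted p of 0.05. Without the pool 0.1X MMR replicate 1 the count was 3 of 6. Type VI collagen links cells to the matrix around them, and its basic trimer holds α1, α2 and another, longer chain. The gene col6a1.L was at 181, 206 and 222 CPM against 222, 197 and 204 CPM, and col6a2.L at 171, 195 and 195 CPM against 194, 181 and 203 CPM, with log2 fold changes of 0.035 (SE 0.091) and 0.047 (SE 0.085). The most read gene of the class, col6a5.S, encodes a long chain that in mammals can take the place of α3. It was among the steadiest collagen genes, at 942, 992 and 1019 CPM against 984, 932 and 983 CPM, a log2 fold change of -0.027 (SE 0.072).

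Among the other fibril-associated chains, type XIV, a chain of dense connective tissue and skin, was at -0.0012 (SE 0.083) for col14a1.L and 0.16 (SE 0.10) for col14a1.S. The gene col14a1.S stood at 76.0, 68.1 and 71.9 CPM against 74.3, 73.7 and 94.0 CPM. Only the pool at 94.0 CPM, 0.75X MMR replicate 3, lay above the range in 0.1X MMR. The gene col16a1.L was at -0.013 (SE 0.12). Of the transmembrane chains, col17a1.L, a part of the hemidesmosomes that fix epidermis to its basement membrane, was at -0.066 (SE 0.11), and col13a1.L, of cell-matrix contacts, at 0.045 (SE 0.13). All 3 short-chain genes were lower in mean in 0.75X MMR, beside 50.4% of all genes. The count was 2 of 3 by limma-voom, also with 2 surrogate variables. It was also 2 of 3 without 0.1X MMR replicate 2 or 3, or without 0.75X MMR replicate 3. The gene col8a1.L, of the hexagonal networks of vessel and eye membranes, stood at 45.2, 39.6 and 54.7 CPM against 42.8, 43.1 and 28.8 CPM. Here the lowest value was in the pool 0.75X MMR replicate 3 alone, and the log2 fold change was -0.28 (SE 0.15) with an unadjusted p of 0.081 by edgeR. Its homeolog col8a1.S was at -0.0073 (SE 0.14), and col10a1.L, a chain of hypertrophic cartilage, at -0.15 (SE 0.37) with 1.41 to 2.27 CPM.

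Single pools stood apart in their collagen levels. In the pool 0.1X MMR replicate 1 the level was the lowest of the 6 pools for 30 of 49 genes (61.2%) and the highest for 0. Among the 6848 tested genes that averaged at least 200 counts this pool was lowest for 17.9% and highest for 21.5%. Its median deviation from a gene's mean over the 6 pools was -0.14 on the log2(CPM + 0.5) scale for collagen genes and 0.0076 for those 6848 genes. The pool 0.1X MMR replicate 2 was the highest for 21 of 49 genes (42.9%), against 17.8% of the 6848 genes. The low pool had the most reads, 7045215 counts, and a TMM factor of 0.996, within the range of 0.990 to 1.02 of the others.

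By class, the pool 0.1X MMR replicate 1 was lowest for 11 of 13 interstitial fibrillar genes, with a median deviation of -0.19, and for 8 of 12 notochord and cartilage genes, also at -0.19. It was lowest for 4 of 8 basement membrane genes and for 2 of 6 beaded filament genes, with median deviations of -0.10 and -0.062. Both transmembrane genes were lowest in it, as were 2 of 5 other fibril-associated genes and 1 of 3 short-chain genes. The classes were not compared by a test. The gene col5a3.S, for one, was at 206 CPM in this pool and 273 to 305 CPM in the other 5. The sums of the 13 other gene lists were lowest in this pool for 0 lists and highest for 5, the epidermal and nervous system markers, small proteoglycans, procollagen export and collagen receptors. Epidermal markers added up to 5367 CPM in it and 5111 to 5306 CPM in the rest, and small proteoglycans to 1049 CPM against 932 to 1017 CPM. Genes for collagen hydroxylation and folding, at 3037 CPM against 2919 to 3255 CPM, and muscle markers, at 8944 CPM against 7340 to 11257 CPM, lay inside the range of the other pools. What set this pool apart was not tested.

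**Figure D3:**
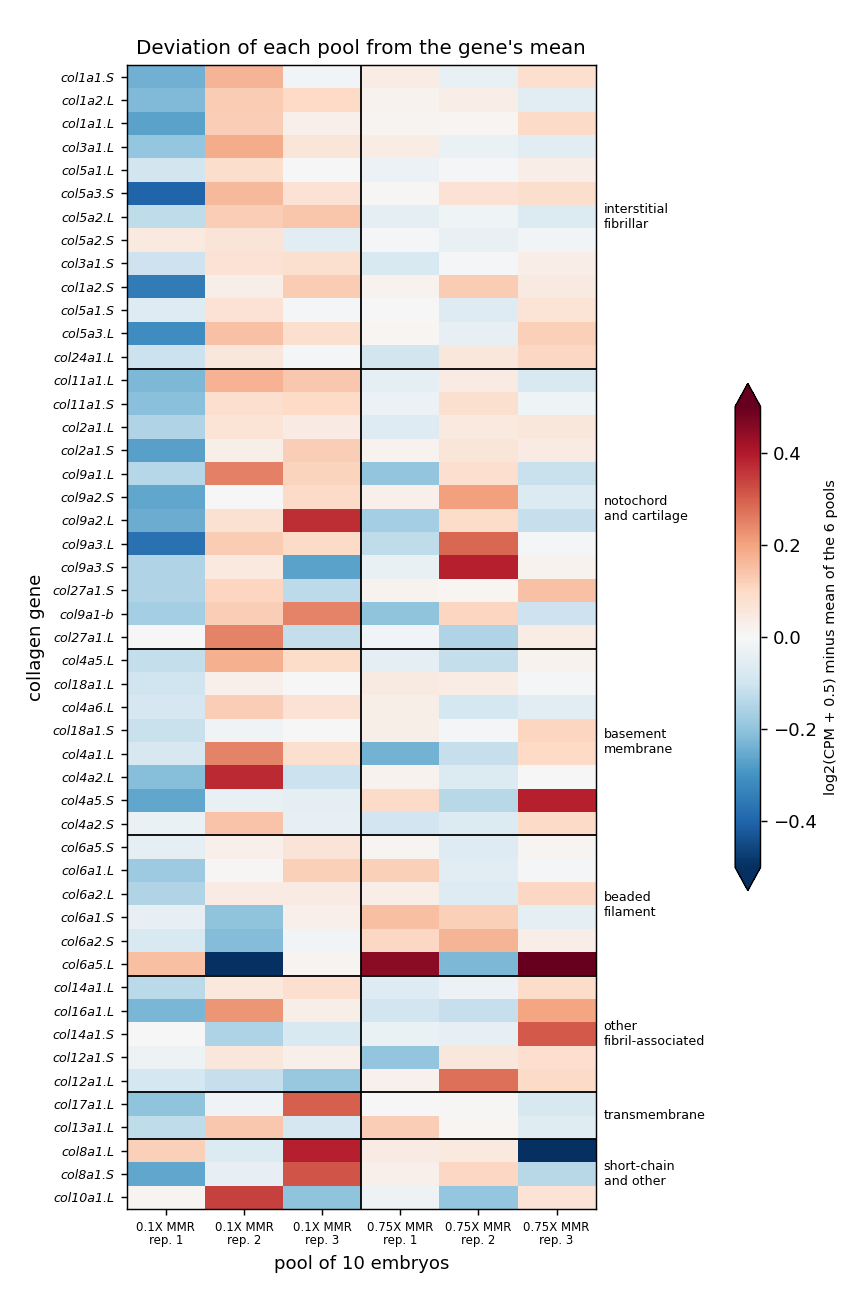
Deviation of each pool from the gene's mean over the 6 pools, as log2(CPM + 0.5), for the 49 collagen genes in rows grouped by class, with blue for lower and red for higher than the mean and colours capped at 0.5. The first column, 0.1X MMR replicate 1, is blue for most genes, with a median of -0.14, and the second, 0.1X MMR replicate 2, is mostly red, with a median of 0.073.

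The direction of the collagen genes as a group depended on these pools. Without the pool 0.1X MMR replicate 1, 37 of 49 genes were lower in 0.75X MMR (24 with all pools), beside 50.2% of all genes, and the median log2 fold change was -0.053. That pool was the lowest for 30 of the 49 genes, so leaving it out lowers their log2 fold changes in itself. Leaving it out also narrows their spread in 0.1X MMR, which lowers p-values in itself. Without that pool 8 of 49 genes had an unadjusted p under 0.05 by edgeR in place of 2, beside 4.26% of all genes. Since the pool stood out in these same genes, this count cannot show a difference between media. Of these 8, col12a1.L and col6a2.S were higher and col11a1.L, col4a5.L, col5a2.L, col9a1.L, col9a1-b and col9a2.L were lower. The genes lower without that pool included 12 of 13 interstitial fibrillar and 9 of 12 notochord and cartilage genes. Without 0.1X MMR replicate 2, 14 genes were lower and the median was 0.056, with 2 genes under an unadjusted p of 0.05, beside 5.05% of all genes. That pool was the highest for 21 of the 49 genes, so leaving it out raises their log2 fold changes in itself. In both cases 0 collagen genes passed the FDR limit, and the summed collagen level was -0.070 and 0.060 between media on the log2 scale, beside 0.0086 with all pools. Without 0.1X MMR replicate 3 or any 1 pool in 0.75X MMR, 19 to 23 genes were lower, beside 49.5% to 50.9% of all genes. In those cases 1 to 5 genes had an unadjusted p under 0.05 by edgeR, where 1068 to 1316 of 27632 to 27773 genes tested stood. Collagen genes varied more between the pools in 0.1X MMR than between those in 0.75X MMR, with a median coefficient of variation of 11.4% against 5.77% over the 49 genes. For the 6848 genes it was 6.95% and 6.28%. Without the pool 0.1X MMR replicate 1, the lowest for 30 of the 49 genes, the collagen value in 0.1X MMR was 4.66%, over 2 pools. Over the same 2 pools it was 5.49% for the 6848 genes.

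The L and S copies of a collagen gene were read unequally, and by amounts that differed from chain to chain. For 20 chains both copies had a mean count of 10 or more and symbols that differ only in the ending. The log2 ratio of L to S, from CPM with 0.5 added, differed from 0 at an FDR under 0.05 in all 20 (limma over 6283 pairs of genes), where 83.6% of all pairs did. The L copy had more reads in 14 chains (70%) and the S copy in 6, and L was higher in 62.5% of all pairs. The median ratio was 0.47 for collagen pairs and 0.29 for all pairs. The calls nearest the limit did not all hold with fewer pools. That of col11a1, at 0.13 (SE 0.050, FDR 0.036), missed the limit whichever pool was left out, with FDR 0.052 to 0.0996. Its L copy was higher in all 6 pools. The call of col9a2, at -0.17 (SE 0.059, FDR 0.026), missed it in 4 of the 6 cases, with FDR 0.059 to 0.081. That of col9a3, at 0.26 (SE 0.080, FDR 0.019), missed it without 0.75X MMR replicate 3, with FDR 0.053. The other 17 pairs kept the call whichever pool was left out.

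Ratios at both ends were wide. The largest was that of col6a5, where the S copy took nearly all reads, with mean counts of 5835 for S and 19.1 for L. In 0.1X MMR its log2 ratio was -7.93, -9.09 and -8.18, against -7.69, -8.29 and -7.59 in 0.75X MMR. With L at 1.32 to 4.61 CPM the added 0.5 CPM moves this ratio, whose mean was -8.13 with 0.5 added, -8.32 with 0.1 and -7.59 with 2. At the other end col4a5 had mean counts of 2526 for L and 79.7 for S, a log2 ratio of 4.95 (SE 0.065). The ratio was 2.58 (SE 0.070) for col4a2, 2.51 (SE 0.053) for col1a2 and 2.40 (SE 0.068) for col14a1. More S than L reads were also seen for col12a1 at -1.65 (SE 0.057), col27a1 at -1.52 (SE 0.053), col5a3 at -1.03 (SE 0.052) and col1a1 at -0.79 (SE 0.050). Near balance were col11a1, col9a2, col9a3 and col5a2, the last at 0.31 (SE 0.063).

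**Figure D4:**
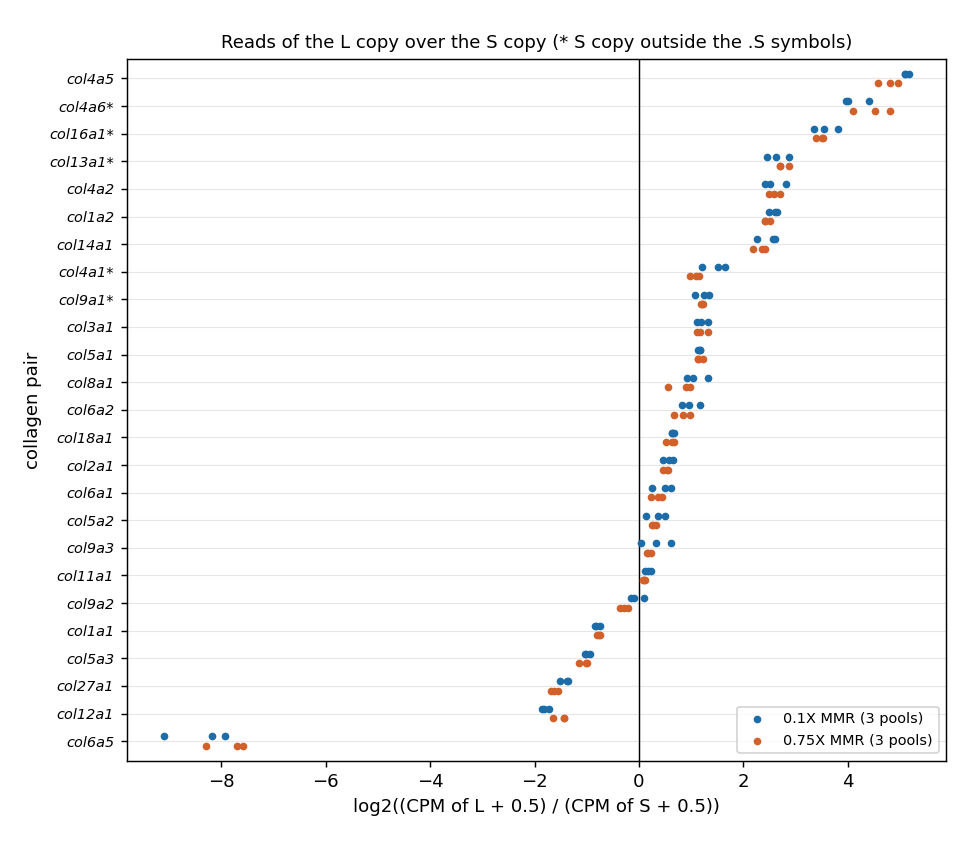
Log2 ratio of L to S levels, as (CPM of L + 0.5)/(CPM of S + 0.5), of the collagen chains in each of the 6 pools, blue for 0.1X MMR and orange for 0.75X MMR, with an asterisk for chains whose S copy has a symbol not ending in .S. Ratios run from -9.09 in col6a5 to 5.16 in col4a5. The pools spread most within col6a5, from -9.09 to -7.59. Among the chains without an asterisk the 2 media do not overlap for col12a1, col4a5, col27a1 and col9a2. Among those with an asterisk they do not overlap for col4a1.

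Chains that share a trimer did not always lean to the same copy. In type I collagen col1a1 leaned to S in all 6 samples, between -0.83 and -0.74, and col1a2 leaned to L in all 6, between 2.41 and 2.64. In type V collagen col5a1 was at 1.16 (SE 0.050), col5a2 at 0.31 and col5a3 at -1.03. Type VI had col6a1 at 0.40 (SE 0.066) and col6a2 at 0.91 (SE 0.069) towards L beside col6a5 towards S. Type IX was close to balance for α2 and α3, while col9a1.L had more reads than col9a1-b on chromosome 5S, at a log2 ratio of 1.21 ± 0.086 (SD over 6 samples).

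In type IV collagen each chain that was read leaned to L. Besides col4a2 and col4a5 above, the α1 and α6 chains have S genes without a collagen symbol, which were matched by the product name in the deposited annotation and by position. The match was made after the values were seen, and no test was run on it. The gene col4a1.L had a mean count of 294 and its counterpart LOC108709739 on chromosome 2S one of 121, a log2 ratio of 1.27 ± 0.26 (SD over 6 samples). The gene col4a6.L had a mean count of 1790 and LOC108700099 on chromosome 8S one of 90.4, a log2 ratio of 4.30 ± 0.33. The type IV genes lie as adjacent pairs in the Xenopus_laevis_v10.1 assembly. On chromosome 2L col4a2.L (121854871 to 121973598) and col4a1.L (121973903 to 122067473) are 304 bp apart, and on 2S col4a2.S (107888346 to 107992221) and LOC108709739 (107992315 to 108103121) are 93 bp apart. On chromosome 8L col4a6.L (42086839 to 42223266) and col4a5.L (42224063 to 42317783) are 796 bp apart, and on 8S LOC108700099 (57695776 to 57828722) and col4a5.S (57829573 to 57978445) are 850 bp apart. Both genes of the 8S pair had few reads next to those of the 8L pair, and the genes of the 2S pair were less far below those of the 2L pair.

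Further collagen genes are neighbours on chromosome 9_10. The genes col3a1 and col5a2 lie 13601 bp apart on 9_10L and 10259 bp apart on 9_10S, and their ratios were 1.20 (SE 0.057) and 0.31. The genes col6a1 and col6a2 lie 48598 bp apart on 9_10L and 49719 bp apart on 9_10S, with ratios of 0.40 and 0.91.

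These ratios depend on how reads were divided between near-identical copies. In 18 of the 20 chains the counts of a copy were not whole numbers in at least 1 sample, and in all 18 the sum of L and S was whole within 0.02 in all 6 samples, as when each ambiguous read is split between the homeologs. Among all pairs with counts that were not whole this held for 91.2%. The copies that were whole in every sample were those of col4a2 and col8a1. Transcript lengths of the copies were not used here, and a longer annotated copy would draw more reads at the same transcript number.

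The share of L and S did not pass the test for a difference between media in any of the 20 chains tested. By limma 0 of 20 pairs had an FDR under 0.05 for a change of the ratio, as for all 6283 pairs (0%), and the smallest FDR of a collagen pair was 0.846. At an unadjusted p under 0.05 there were 2 of 20 pairs, beside 5.81% of all pairs. In 0.1X MMR the ratio of col4a5 was 5.09, 5.16 and 5.09, against 4.80, 4.97 and 4.58 in 0.75X MMR, a difference of -0.33 (SE 0.13), and that of col12a1 was -1.71, -1.82 and -1.86 against -1.43, -1.43 and -1.64, a difference of 0.30 (SE 0.11). The ratios of 4 collagen pairs (20.0%) did not overlap between media, where 10.4% of all pairs did not. Besides these 2 they were col27a1 and col9a2, at differences of -0.20 (SE 0.11) and -0.24 (SE 0.12). The pairs matched by product name or position were outside this test. Among them the ratio of col4a1.L to LOC108709739 did not overlap between media either. It was 1.21, 1.65 and 1.52 in 0.1X MMR, against 0.98, 1.15 and 1.09 in 0.75X MMR. The ratios of the other matched pairs overlapped.

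Proportions between chains that share a trimer or a fibril were taken as ratios of reads. With L and S copies summed, the log2 ratio of α1(I) to α2(I) reads was 1.08, 1.13 and 0.99 in the pools in 0.1X MMR, against 1.10, 1.02 and 1.22 in those in 0.75X MMR. They are not ratios of transcripts. The ratio of col4a5 to col4a6 (L copy only) was 0.55 ± 0.045 and 0.53 ± 0.084 (SD, n = 3 each), and that of col6a1 to col6a2 was 0.32 ± 0.046 and 0.30 ± 0.088. The ratio of col5a3 to col5a2 spread more, at -0.45 in the pool 0.1X MMR replicate 1 and -0.10 to 0.020 in the other 5. Over the 6 pools the 13 ratios computed had ranges of 0.15 to 0.48 on the log2 scale, and 2 did not overlap between media. No share over other ratios between chains was computed. Of all genes 9.73% did not overlap, and of all L to S ratios 10.4%. Several of the 13 ratios share a chain. The ratio of col5a1 to col5a2 was -0.053 ± 0.022 in 0.1X MMR and 0.018 ± 0.047 in 0.75X MMR, and that of col2a1 to col9a1 was 2.31 ± 0.059 and 2.50 ± 0.12. No test was run on these ratios.

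Genes that make, bind or sense collagen did not pass the test either. With edgeR 0 genes had an FDR under 0.05 among 27 tested genes for hydroxylation and folding of collagen, 20 for export and trimming of procollagen, 9 for cross-linking, 12 for small proteoglycans that bind collagen, 23 for basement membrane partners and 9 for receptors. At an unadjusted p under 0.05 these lists held 0, 1, 0, 1, 2 and 0 genes, beside 4.39% of all genes tested. The smallest p was that of adamts2.S, a protease that removes the amino-terminal propeptide of fibrillar procollagens, with an unadjusted p of 0.0074. It stood at 12.0, 10.2 and 12.7 CPM in 0.1X MMR and 8.43, 8.51 and 7.68 CPM in 0.75X MMR, without overlap, at a log2 fold change of -0.50 (SE 0.16) and an FDR of 1.00. Among all genes tested 9.73% did not overlap between media. The enhancer of procollagen C-terminal cleavage pcolce.S was at -0.16 (SE 0.086), and the keratocan gene kera.L, a corneal proteoglycan, at 0.22 (SE 0.093).

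Basement membrane partners were mostly lower in mean in 0.75X MMR. Of 23 tested genes for laminins, nidogens, perlecan and related proteins 19 were lower in mean in 0.75X MMR, beside 50.4% of all genes, with a median log2 fold change of -0.082. With single pools left out 15 to 19 of them were lower, and 18 were without 0.1X MMR replicate 1. Their summed level was 4062, 4042 and 4107 CPM in 0.1X MMR and 3770, 3877 and 4010 CPM in 0.75X MMR, without overlap. Of the 13 lists summed, those of collagen receptors and the blood marker did not overlap either. Taken singly, 2 of the 23 genes (8.70%) did not overlap between media, beside 9.73% of all genes. The nidogen gene nid2.L was at 270, 220 and 239 CPM against 211, 209 and 214 CPM, a log2 fold change of -0.20 (SE 0.086) with an unadjusted p of 0.034 by edgeR. The laminin gene lamb2.L was at -0.22 (SE 0.093) with an unadjusted p of 0.036 by edgeR. Both had an FDR of 1.00. Sparc, a collagen-binding protein of basement membranes, was at -0.14 (SE 0.090) for sparc.L and -0.079 (SE 0.075) for the better read sparc.S. The other homeologs were at -0.082 (SE 0.080) for nid2.S and -0.32 (SE 0.29) for the thinly read lamb2.S. Of the 4 genes higher in mean in 0.75X MMR, nid1.L was the furthest from 0, at 0.23 (SE 0.16).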

How the data were processed

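The authors trimmed reads with fastp, aligned them with STAR to version 10.1 of the X. laevis genome and deposited expected counts per gene from RSEM, not normalized. A second deposited file holds log2 CPM, which the authors normalized with TMM and voom and adjusted for surrogate variables, and it served only as an alternative without a test. Tool versions are not given in the sources used here. Expected counts, of which 42.5% of values above 0 were not whole, were rounded. Genes with over 0.6 CPM in at least 3 samples (28075) were tested with edgeR 4.0.16 (quasi-likelihood, TMM, no covariate) in R 4.3.3. The study's methods name limma, so limma-voom (limma 3.58.1), also with 2 surrogate variables (sva 3.50.0), was an alternative, as were DESeq2 1.42.0, other filters and normalization, a replicate block and leaving out each sample. Homeolog ratios were tested with limma on log2 ratios of CPM with a pseudocount of 0.5. Functions were tested on simulated data.

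Genes were named if past the FDR limit, among the 10 smallest p-values, at a mean count of 200 or more or next to the minimum, with their homeologs, plus the 3 highest and 3 lowest L to S ratios and up to 3 genes of each other list. The other collagen genes are described too. Members and lists were chosen with earlier results of these data known. All 49 symbols matched the RefSeq gene table of the same assembly, which gave the coordinates. That table holds no transcript lengths, so planned values per length were not made. Summed levels without single samples, and S copies matched by product name, were chosen after seeing the data. Counts cover counting error only. A count of 3 in one sample is 0.428 to 0.603 CPM.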

Additional observations from a re-analysis of the deposited data

How the results depend on the processing

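Under every alternative run 0 collagen genes and 0 genes of the other matrix lists passed the FDR limit, while the number of all genes past it was 5 by edgeR and limma-voom, 34 without the filter on low counts, 13 by DESeq2, 16 with 2 surrogate variables and 2 with the replicate block. Sample numbers did not pair the pools: samples with the same number had correlations of -0.024, -0.034 and -0.11 in their deviations from the mean of their medium, and 0 of 3 correlated best with its own number. With the replicate block 0 collagen genes passed, and 19 of 20 L to S ratios kept the call, col11a1 being lost (FDR 0.086), with 0 changes between media. Leaving out 1 pool left 18 to 19 ratios past the limit. For 26 of the named collagen genes the direction between media turned without some pool, none of them past the limit in any case. The log2 fold change over the left-out pools ran for col10a1.L from -0.28 to 0.041, col11a1.L -0.18 to 0.0083, col11a1.S -0.081 to 0.066, col12a1.S -0.079 to 0.053, col14a1.L -0.066 to 0.040, col16a1.L -0.13 to 0.0997, col17a1.L -0.17 to 0.081, col1a1.L -0.032 to 0.15, col1a1.S -0.053 to 0.15, col1a2.L -0.11 to 0.051, col1a2.S -0.015 to 0.21, col27a1.L -0.17 to 0.0054, col2a1.L -0.040 to 0.065, col2a1.S -0.038 to 0.15, col3a1.L -0.14 to 0.043, col4a2.L -0.18 to 0.15, col4a2.S -0.11 to 0.017, col5a1.L -0.045 to 0.044, col5a1.S -0.031 to 0.036, col5a3.L -0.085 to 0.13, col5a3.S -0.062 to 0.20, col6a1.L -0.043 to 0.10, col6a2.L -0.015 to 0.090, col8a1.S -0.14 to 0.15, col9a2.L -0.29 to 0.019 and col9a3.L -0.051 to 0.19. Class medians ran from -0.11 to 0.045 for basement membrane and from -0.053 to 0.0997 for other fibril-associated chains, both highest without 0.1X MMR replicate 2. Other settings turned 7 genes, all near 0: col14a1.L was 0.00025 with RLE factors, 0.00069 by DESeq2, 0.0020 by limma-voom and 0.0096 with surrogate variables, col5a1.L 0.0012 with RLE factors, 0.00045 without the filter, 0.0014 by DESeq2, 0.0020 by limma-voom and 0.0011 with the block, col1a2.L 0.00060 by limma-voom and 0.00031 with surrogate variables, col8a1.S 0.017 and 0.0062, and with surrogate variables alone col11a1.S was -0.00042, col16a1.L 0.018 and col6a5.S 0.0022. The cause was not tested. Depth limited col10a1.L and col6a5.L, whose 95% intervals spanned more than 1 on the log2 scale.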

Other observations

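A further 26 genes have a collagen chain as product name in the deposited annotation but a LOC symbol, so the symbol rule left them out. They were picked after the data were seen. By edgeR 0 of them had an FDR under 0.05, and 2 (7.69%) had an unadjusted p under 0.05, beside 4.39% of all genes. These were LOC108720058, an α1(IX) chain on chromosome 6S, at 24.8, 31.2 and 38.8 CPM in 0.1X MMR and 27.6, 24.1 and 19.8 CPM in 0.75X MMR (log2 fold change -0.39, SE 0.16), and LOC108700099, the α6(IV) chain on 8S, at 17.6, 14.8 and 19.1 CPM against 12.9, 9.64 and 16.3 CPM (-0.40, SE 0.18). In both genes the samples of the media overlapped. The samples did not overlap for 2 other genes of the 26 (7.69%), beside 9.73% of all genes, and both were higher in 0.75X MMR. They were LOC108709739, the α1(IV) chain on 2S, and LOC108719126, an α1(XXI) chain at a mean count of 11.8. Of the 5 genes annotated as α1(IX) or α2(IX) chains on chromosomes 5L, 5S, 6L and 6S, each was lower in mean in 0.75X MMR, from -0.022 to -0.39. Of the 26 genes 15 (57.7%) were lower, and of all genes tested 50.4%. Among the type IX genes the pool 0.1X MMR replicate 3 was the highest for each but LOC108719125. The lower mean of LOC121394868 came from that pool alone, at 25.1 CPM. The other pools in 0.1X MMR were at 16.1 and 15.4 CPM, below the 17.5 to 19.5 CPM in 0.75X MMR.

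The best read of the 26 genes was LOC108702985, an α1(XXVIII) chain on 9_10S, with a mean count of 4788 and 738, 828 and 810.5 CPM in 0.1X MMR against 833, 800 and 796 CPM in 0.75X MMR. Only the col1a1.S, col6a5.S, col1a2.L and col1a1.L genes had more counts among the collagens. Its L counterpart LOC108701364 had a mean count of 854, a log2 L to S ratio of -2.49 ± 0.077 (SD over 6 samples). The α3(VI) chain also leaned to S, with a mean count of 965 for LOC108702278 on 9_10S and 289 for LOC398368 on 9_10L, at a ratio of -1.74 ± 0.15.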
